A study of Mus musculus with 2 samples.

Results

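Potassium channel subunits were followed in RNA of the synaptosome fraction and of total homogenate of mouse brain. The members were all gene symbols of the deposited tables that begin with Kcn and a further lower-case letter, without Kcnj10 and the noncoding RNA Kcnq1ot1, which gave 93 of 23329 genes. Of these, 78 reached 20 counts summed over both libraries, the threshold for giving a ratio, as did 14649 genes in all. The series named as its purpose the search for mRNAs enriched at synapses. The 2 libraries were 1 from the synaptosome fraction, collected between 3% and 10% Percoll on a density gradient, and 1 from total homogenate, both of wild-type C57BL/6 whole brain. Synaptosomes are nerve endings that pinch off and reseal when brain is homogenised, often with postsynaptic membrane attached. Both library titles carry the tags WT1 and CT10. The labels used here give neither age, nor sex, nor the number of brains behind each library.

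The libraries held 13709539 estimated counts for the synaptosome fraction and 15210857 for the homogenate. There was no replicate of either, so each ratio compares these 2 libraries, no test was possible and no p-value is given. Ratios are synaptosome over homogenate after TMM scaling, which sets the typical gene near a log2 ratio of 0. The range in brackets after a ratio is its 95% counting interval. A ratio past 2-fold in either direction whose log2 interval excluded 0 is called higher or lower. Levels are given in TPM, a measure per transcript length that sums to the same total in each library. A gene with equal TPM in both libraries therefore had a ratio above 1, because the typical gene had less of the total in the synaptosome fraction: with library totals in place of TMM the median log2 ratio of all genes was -0.52.

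Potassium channels let potassium leave the cell and so set the resting potential, end the action potential and limit repetitive firing. Pore-forming subunits fall into voltage-gated (Kv), inward-rectifier (Kir), leak-conducting two-pore and calcium-activated families. Accessory subunits bind these pores and change their gating or their transport to the membrane. In neurons the different channels are sorted to axons, nerve endings, cell bodies or dendrites, while some Kir channels work mainly in glia and in vessel walls.

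Pore-forming and accessory subunits differed in the middle of their ratios, though their ranges overlapped. Of 65 measured pore-forming members, 54 had a log2 ratio above 0, with a median of 0.65. Of 13 measured accessory members, 9 lay below 0, with a median of -0.80, but 4 of them had under 100 summed counts. Among members with at least 100 summed counts, 5 of 9 accessory members lay below 0, with a median of -0.19, and the median of 56 pore-forming members was 0.67. All 78 members had a median of 0.58, against -0.02 for all genes that reached the threshold. Of all these genes 48.8% lay above 0, with 40.4% below 200 summed counts and 63.9% from 2000 upward. Under library totals the pore-forming median became 0.15 and the accessory median -1.29, so the order of both groups was the same while 37 instead of 54 pore-forming members lay above 0.

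In counts of genes the members were close to the background. By these limits 12 members were higher (15.4% of 78), against 12.6% of all genes, and 8 were lower (10.3%), against 9.37% of all genes. With library totals, 2 members were higher and 11 lower, beside 4.44% higher and 25.9% lower among all genes. Of those called higher under library totals, both, Kcnj16 and Kcne1l, were among the 12. Upper quartile scaling gave 8 higher members (all genes: 10.9%). The share called higher was 15.4% both for pore-forming members (10 of 65) and for accessory members (2 of 13). Lower were 3 of 65 pore-forming and 5 of 13 accessory members. With at least 100 summed counts, 0 of 56 pore-forming and 2 of 9 accessory members were lower. Ratios of all genes tended to lie higher at high abundance, so counts and medians are also given by range. Of 21 members under 200 summed counts, 4 were higher (all genes of that range: 9.49%) and 6 were lower (all genes: 18.8%), and their median log2 ratio was 0.06, against -0.26. Of 33 members from 200 to under 2000 counts, 5 were higher (all genes: 9.6%) and 1 was lower (all genes: 7.31%), with a median of 0.69, against -0.07. Of 24 members from 2000 counts upward, 3 were higher (all genes: 22.7%) and 1 was lower (all genes: 3.91%), with a median of 0.58, against 0.33. The median of the members lay above that of all genes in each range.

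**Figure D1:**
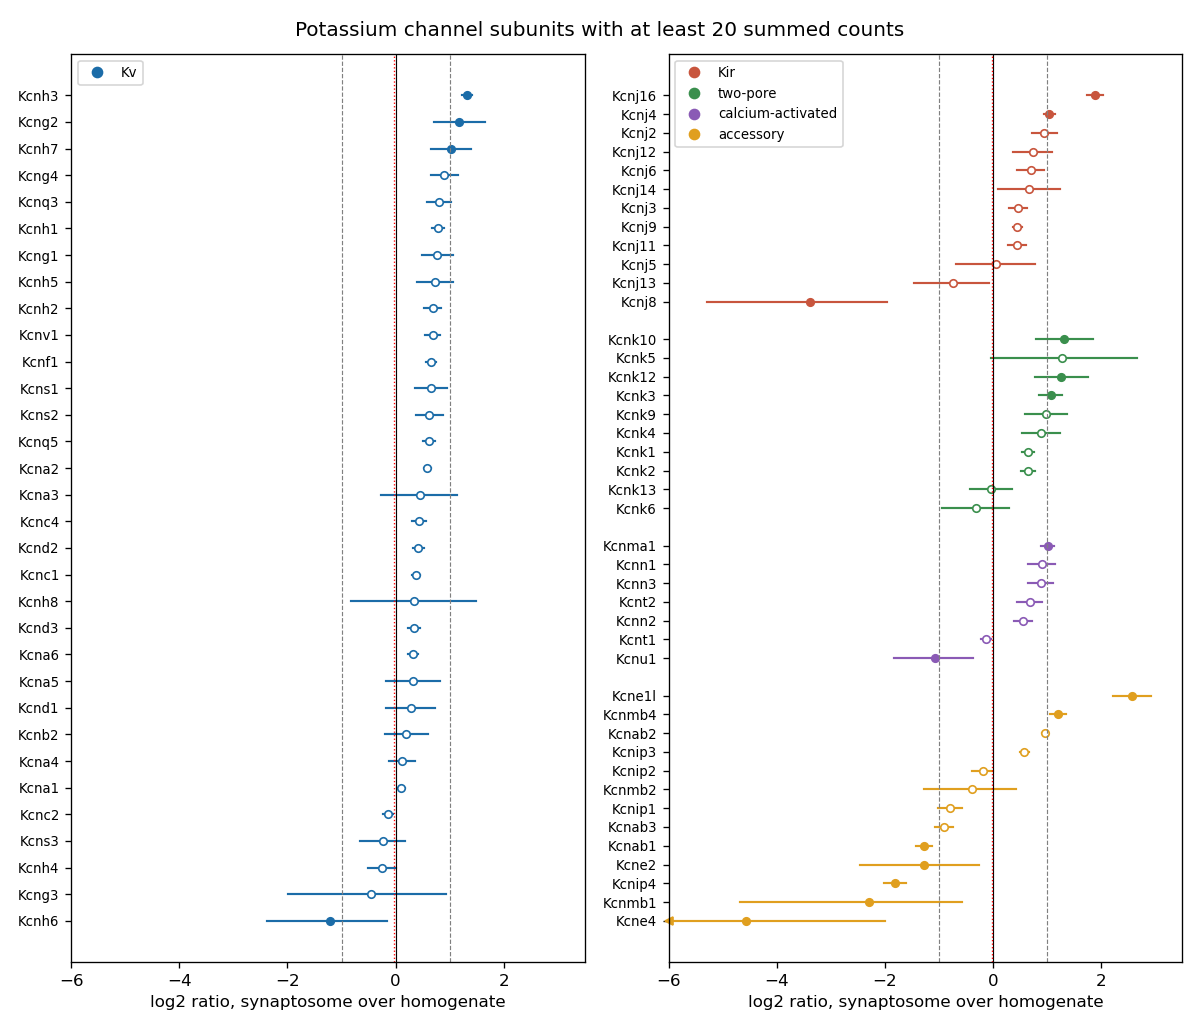
Log2 ratio, synaptosome over homogenate, of 74 of the 78 members with at least 20 summed counts, with Kv subunits on the left and the other classes on the right. Bars are 95% counting intervals, filled points were at least 2-fold higher or lower, dashed lines mark 2-fold and the red dotted line is the median of all genes; the interval of Kcne4 runs past the left edge. Most pore-forming members sit between 0 and the upper dashed line, while 9 of 13 accessory members sit left of 0.

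**Figure D2:**
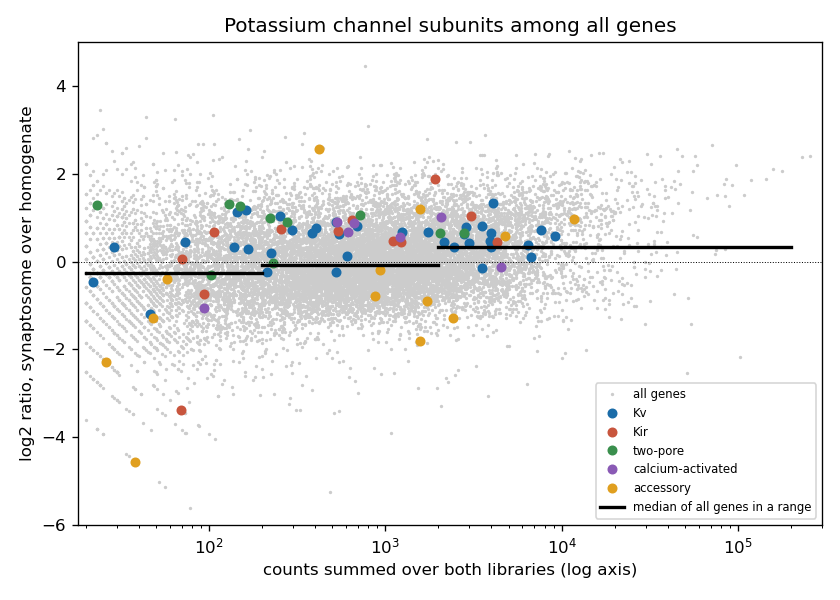
Log2 ratio against counts summed over both libraries (log axis) for the members, coloured by class, and for all other genes in grey; genes with 0 counts in a library are not drawn, and a few genes lie beyond the axis. Black lines are the medians of all genes below 200, from 200 to under 2000 and from 2000 summed counts. Most members lie above these lines. From 2000 summed counts the exceptions include the accessory Kcnab1 and the pore-forming Kcna1, Kcnc2 and Kcnt1.

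The remaining 15 members stayed under the threshold, and 6 of them (Kcnj1, Kcnv2, Kcnmb3, Kcne1, Kcnk16 and Kcnk18) had 0 counts in both libraries. Nearest below it were Kcnrg with 19 summed counts and Kcna10 with 8, and nearest above it were Kcng3 with 22 and Kcnk5 with 23. A member with few counts can pass through the library in which it is high, so a low member that passed only in that way had to differ. Of the 8 lower members, Kcnip4 and Kcnab1 were the ones with at least 100 summed counts.

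Lists of cell type markers describe what else the libraries held. Of 10 oligodendrocyte markers 2 were higher and 0 lower, with 21926 TPM in the synaptosome fraction and 9758 TPM in the homogenate. Mbp alone held 17154 TPM of this sum in the synaptosome fraction and 4682 TPM in the homogenate. The median log2 ratio of the oligodendrocyte markers was 0.31. Of 10 microglial markers 4 were higher and 0 lower, with 838 TPM in the synaptosome fraction and 583 TPM in the homogenate. Projection neuron markers of cortex and hippocampus had 1 of 8 higher and 1 lower, with 4380 TPM in the synaptosome fraction and 2659 TPM in the homogenate. Camk2a alone held 2896 TPM of this sum in the synaptosome fraction and 1183 TPM in the homogenate. The median log2 ratio of these projection neuron markers was -0.49. Of 8 striatal markers 1 was higher and 0 lower, and of 6 measured cerebellar granule cell markers 1 was higher and 0 lower. The granule cell marker Gabra6 had 0 counts in both libraries, and Cbln3 had 6 in each. The synaptosome fraction therefore held glial as well as neuronal RNA, and the part of these cells in the ratios of the members was not tested.

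Together the members made up 2857 TPM in the synaptosome fraction and 2883 TPM in the homogenate. The 10 members of highest level held 49.4% of this sum in the synaptosome fraction and 43.8% in the homogenate, and 8 members were among the 10 in both libraries. Kcnab2 was first in both, followed by Kcnmb4, Kcnip3 and Kcnj4 in the synaptosome fraction and by Kcnip2, Kcnip3 and Kcnj9 in the homogenate. By class, Kv subunits held 39.7% of the sum in the synaptosome fraction and 38.5% in the homogenate. Accessory subunits held 30.4% in the synaptosome fraction and 34.6% in the homogenate, Kir subunits 15.7% in the synaptosome fraction and 13.3% in the homogenate, and two-pore subunits 8.14% in the synaptosome fraction and 7.09% in the homogenate. Calcium-activated subunits held 6.08% in the synaptosome fraction and 6.46% in the homogenate.

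**Figure D3:**
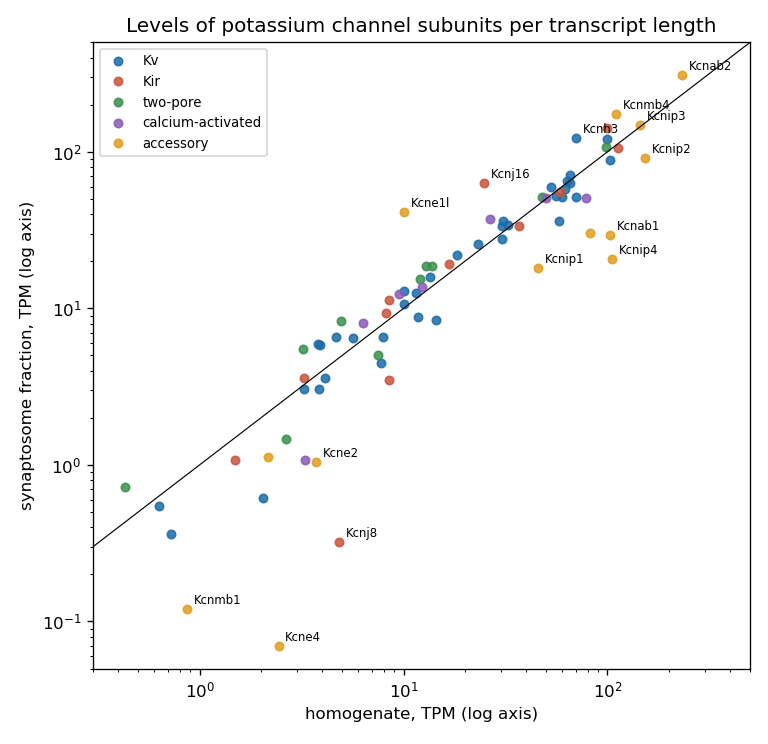
Level in TPM in the synaptosome fraction against level in the homogenate for the 78 members, both on log axes, coloured by class; the line marks equal TPM. Points farthest above the line are Kcne1l and Kcnj16, and points farthest below are Kcne4, Kcnj8 and Kcnmb1.

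**Figure D4:**
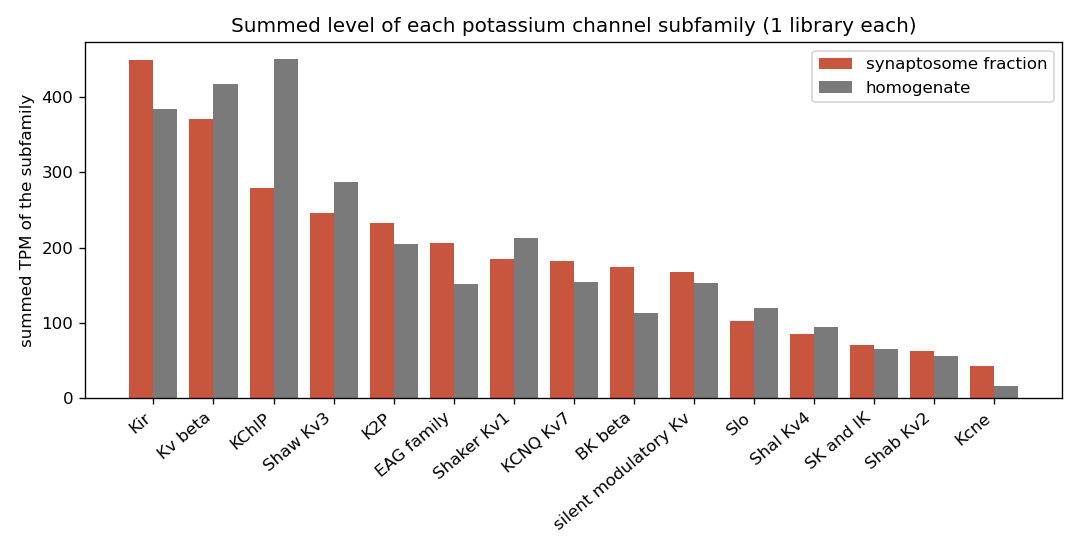
Summed TPM of each subfamily in the synaptosome fraction (red) and the homogenate (grey), 1 library each, with subfamilies ordered by their level in the synaptosome fraction. KChIP subunits show the widest gap below the homogenate, with 278 TPM in the synaptosome fraction and 450 TPM in the homogenate, while the Kir, EAG family and BK beta bars stand above those of the homogenate.

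Kv subunits, which open on depolarisation, mostly lay within a narrow band. Of 36 measured, 27 had log2 ratios between 0 and 1, 4 were higher and 1 was lower. The share of all genes was 12.6% higher and 9.37% lower, and under library totals no Kv member was higher (all genes 4.44%). The median log2 ratio was 0.54, or 0.04 under library totals. The subfamilies differed in level of ratio. KCNQ (Kv7) subunits, which carry the M-current that restrains repetitive firing, had a median of 0.81 over 4 measured members, and the EAG family 0.71 over 8. Shaker (Kv1), Shal (Kv4) and Shaw (Kv3) subunits had medians of 0.33 over 6, 0.34 over 3 and 0.40 over 4 members, and under library totals all 3 medians lay below 0, at -0.16, -0.15 and -0.09.

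Among the EAG family, Kcnh3, a forebrain channel subunit of the ELK group, had 2534 counts in the synaptosome fraction and 1574 in the homogenate, which was 2.51-fold higher (2.36 to 2.68) and the highest ratio of the Kv class. Kcnh3 lies on chromosome 15 (99224976 to 99242817, build mm10) and reached 122 TPM in the synaptosome fraction, against 70.5 TPM in the homogenate. Kcnh7, an ERG channel subunit, had 144 synaptosome and 110 homogenate counts and was 2.04-fold higher (1.58 to 2.64), a call lost with upper quartile scaling (log2 ratio 0.96). Kcnh6, another ERG subunit, went the other way with 10 counts in the synaptosome fraction and 36 in the homogenate, 2.31-fold lower (1.12 to 5.21). Related subunits of the EAG family thus stood on both sides of the typical gene, with Kcnh6 read from few counts.

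Kcnq3, a KCNQ subunit of the M-current, had 364 synaptosome and 325 homogenate counts and a log2 ratio of 0.81 (0.59 to 1.03). Kcnq5, a relative in the same subfamily, had 1394 synaptosome and 1414 homogenate counts and a log2 ratio of 0.62 (0.51 to 0.73). Their intervals overlapped, so a difference between these KCNQ mRNAs was not detectable at this depth.

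Shaker subunits form axonal and presynaptic channels of low threshold. Kcna2 had 4479 counts in the synaptosome fraction and 4641 in the homogenate, a ratio of 1.51 (1.45 to 1.57). Kcna1 had 2722 synaptosome and 3973 homogenate counts, a ratio of 1.07 (1.02 to 1.12), and Kcna6 had 1766 synaptosome and 2193 homogenate counts, a ratio of 1.26 (1.18 to 1.34). These intervals did not overlap, so the abundant Shaker mRNAs differed from each other by more than counting error, with Kcna2 the highest and Kcna1 the lowest. Kcna1, Kcna5 and Kcna6 are neighbours on chromosome 6 (from 126532551 to 126740674), and the weakly expressed Kcna5, with 62 synaptosome and 77 homogenate counts, had a ratio of 1.26 (0.885 to 1.78). The library-total ratios of Kcna1 and Kcna6 lay below 0 on the log2 scale, at -0.40 and -0.16, and that of Kcna2 lay at 0.10.

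Shaw subunits give the fast currents of neurons that fire at high rates. Kcnc1 had 2922 counts in the synaptosome fraction and 3519 in the homogenate, a log2 ratio of 0.37 (0.30 to 0.45). Kcnc2 had 1306 synaptosome and 2248 homogenate counts and a log2 ratio of -0.14 (-0.24 to -0.04), so its interval lay apart from that of Kcnc1. Markers of fast-spiking and other interneurons, in which Shaw channels are prominent, summed to 775 TPM in the synaptosome fraction and 1522 TPM in the homogenate, where 3 of 8 were lower, 1 was higher and none was at 0. Their part in these ratios was not tested. Among subunits of the dendritic A-current, Kcnd2 had 1377 synaptosome and 1602 homogenate counts, a ratio of 1.34 (1.25 to 1.44), and Kcnd3 had 1092 synaptosome and 1349 homogenate counts, a ratio of 1.26 (1.17 to 1.37).

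Silent modulatory Kv subunits, which form no channel alone and join Kv2 subunits, had a median log2 ratio of 0.66 over 9 measured members. Kcnf1, the one with the highest level, had 1990 counts in the synaptosome fraction and 1964 in the homogenate, a ratio of 1.58 (1.49 to 1.68). Kcng2 had 96 synaptosome and 66 homogenate counts and was 2.27-fold higher (1.64 to 3.16). Kcng3, near the threshold with 7 synaptosome and 15 homogenate counts, had the lowest ratio of this subfamily, 0.729, with an interval of the log2 ratio from -1.99 to 0.93.

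Kir subunits conduct near the resting potential, and the class spread widely. Of 12 measured members, 2 were higher and 1 was lower. Beside this stand 12.6% higher and 9.37% lower among all genes. The median log2 ratio was 0.57, or 0.07 under library totals. Kcnj16, a subunit that joins Kcnj10 in glial channels, had 1349 counts in the synaptosome fraction and 567 in the homogenate and was 3.72-fold higher (3.37 to 4.11). It lies on chromosome 11 (110968033 to 111027967). Kcnj10 itself had 539 TPM in the synaptosome fraction and 191 TPM in the homogenate, and the level of Kcnj16 per level of Kcnj10 was 0.118 in the synaptosome fraction and 0.130 in the homogenate. Of 10 astrocyte markers, 8 were higher and 0 lower. They summed to 13502 TPM in the synaptosome fraction and 3961 TPM in the homogenate, with none at 0. The part of astrocyte RNA in the Kcnj16 ratio was not tested. In such bulk libraries a larger share of one cell type and more RNA of the gene per cell cannot be told apart.

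Kcnj4, a strong inward rectifier of forebrain neurons, had the highest level in the synaptosome fraction of the 12 measured Kir members, which leave out Kcnj10, at 142 TPM, against 99.9 TPM in the homogenate. Its 1739 counts in the synaptosome fraction and 1315 in the homogenate made it 2.07-fold higher (1.92 to 2.22). Its log2 ratio fell short of the limit of 1 under library totals (0.55) and upper quartile scaling (0.97). Kcnj3, Kcnj6 and Kcnj9 form the G protein-gated channels through which inhibitory transmitters silence neurons. Kcnj9 had 2009 counts in the synaptosome fraction and 2296 in the homogenate, a ratio of 1.37 (1.29 to 1.45), and Kcnj3 had 521 synaptosome and 590 homogenate counts, a ratio of 1.38 (1.22 to 1.55). Kcnj6 had 276 synaptosome and 265 homogenate counts, a ratio of 1.63, with an interval of the log2 ratio from 0.45 to 0.95. These 3 intervals overlapped, so no difference among the G protein-gated subunits was detectable at this depth.

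The ATP-sensitive channels parted by their neuronal and vascular forms. Kcnj11, the neuronal pore, had 568 counts in the synaptosome fraction and 652 in the homogenate, a ratio of 1.36 (1.21 to 1.52), and its sulfonylurea receptor Abcc8 had 744 synaptosome and 512 homogenate counts and was 2.27-fold higher (2.02 to 2.54). Kcnj8, the pore of pericytes and smooth muscle, had 4 synaptosome and 65 homogenate counts and was 10.4-fold lower (3.87 to 39.3), and its receptor Abcc9 had 21 synaptosome and 134 homogenate counts and was 4.09-fold lower (2.57 to 6.82). Neither interval of the vascular genes reached that of its neuronal counterpart. Of 10 mural cell markers, 4 were lower and 1 was higher, and they summed to 105 TPM in the synaptosome fraction and 183 TPM in the homogenate, and Higd1b had 0 counts in the synaptosome fraction. Of 10 endothelial markers, 9 were lower and 0 higher, summing to 25.6 TPM in the synaptosome fraction and 320 TPM in the homogenate, with none at 0. Their part in these ratios was not tested. Kcnj13, a channel of the choroid plexus, had 26 synaptosome and 68 homogenate counts, a ratio of 0.597 (0.365 to 0.951). Of 8 choroid plexus and ependymal markers 2 were lower, 0 were higher and none was at 0. Their sums were 320 TPM in the synaptosome fraction and 1288 TPM in the homogenate. Ttr alone held 294 TPM in the synaptosome fraction and 1235 TPM in the homogenate. The link of Kcnj13 with these markers was not tested.

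Two-pore subunits carry the leak current of resting cells and had the highest median of the 5 classes. Of 10 measured, 3 were higher and 0 lower, beside 12.6% higher and 9.37% lower among all genes. None was higher under library totals, where 4.44% of all genes were. The median log2 ratio was 0.94, or 0.44 under library totals. The higher members were Kcnk10, Kcnk12 and Kcnk3. Kcnk10, a mechanically gated channel of the TREK group, had 80 counts in the synaptosome fraction and 50 in the homogenate and was 2.50-fold higher (1.73 to 3.63). Kcnk12 had 91 synaptosome and 59 homogenate counts and was 2.41-fold higher (1.72 to 3.40), and the acid-sensitive Kcnk3 had 411 synaptosome and 306 homogenate counts and was 2.10-fold higher (1.80 to 2.44). Their log2 ratios under library totals were 0.83, 0.78 and 0.58 for Kcnk10, Kcnk12 and Kcnk3, and Kcnk3 was also just short of the limit with upper quartile scaling. Kcnk9, closely related to Kcnk3, had 124 synaptosome and 98 homogenate counts and a log2 ratio of 0.98 (0.59 to 1.38), just under the limit of 1.

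The most abundant two-pore mRNAs had smaller ratios than these. Kcnk1 had 107 TPM in the synaptosome fraction and 98.9 TPM in the homogenate, with 1408 synaptosome and 1399 homogenate counts and a ratio of 1.57 (1.46 to 1.69). Kcnk2, the TREK-1 channel, had 1018 synaptosome and 1015 homogenate counts and the same ratio of 1.57 (1.43 to 1.71). Kcnk5, with 14 synaptosome and 9 homogenate counts, had a ratio of 2.43, but its interval (0.979 to 6.36) included 1. Kcnk6 was the lowest, with 35 synaptosome and 68 homogenate counts and a ratio of 0.804 (0.519 to 1.23).

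Calcium-activated channels follow calcium entry with a hyperpolarising current, and the Slo family also holds sodium-activated relatives. Of 7 measured members, 1 was higher and 1 lower, beside 12.6% and 9.37% among all genes. The median log2 ratio was 0.69, or 0.19 under library totals. This median is the value of the sodium-activated Kcnt2, and the lower member was Kcnu1, both Slo relatives counted in this class. Kcnma1, the pore of BK channels, which act at nerve endings, had 1160 counts in the synaptosome fraction and 899 in the homogenate and was 2.01-fold higher (1.85 to 2.20), at the limit itself. The call was lost under library totals (log2 ratio 0.52), deposited TPM (0.49) and upper quartile scaling (0.94). It lies on chromosome 14 (23298694 to 24004205). The small-conductance subunits Kcnn1, Kcnn2 and Kcnn3 had log2 ratios of 0.90, 0.56 and 0.88 (intervals 0.65 to 1.15, 0.39 to 0.72 and 0.66 to 1.11). Kcnn2, the one with the highest level, had 588 synaptosome and 624 homogenate counts. All 3 ratios stayed above 0 under library totals.

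The sodium-activated Kcnt1 lay apart from its relative Kcnt2. Kcnt1 had 1675 counts in the synaptosome fraction and 2861 in the homogenate, a ratio of 0.914 (0.860 to 0.971), and Kcnt2 had 313 synaptosome and 304 homogenate counts, a ratio of 1.61 (1.37 to 1.89). Kcnu1, known from mouse sperm, had 22 synaptosome and 72 homogenate counts and was 2.10-fold lower (1.28 to 3.55). Its level was 1.08 TPM in the synaptosome fraction and 3.27 TPM in the homogenate.

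Accessory subunits had both the highest and the lowest ratio of all members. Kcne1l, a single-span subunit now also called Kcne5, on chromosome X (142304753 to 142306198), had 332 counts in the synaptosome fraction and 87 in the homogenate and was 5.96-fold higher (4.69 to 7.64). Kcne4, which inhibits some Kv1 channels, had 1 count in the synaptosome fraction and 37 in the homogenate and was 23.7-fold lower (4.00 to 961). Kcne2, abundant in choroid plexus epithelium, had 10 synaptosome and 38 homogenate counts and was 2.43-fold lower (1.19 to 5.48). The 3 measured Kcne mRNAs thus gave no common direction, and Kcne2 and Kcne4 were read from fewer than 50 counts each. Kcne2 lay lower in the same libraries in which 2 of 8 choroid plexus and ependymal markers were lower, and its link with them was not tested.

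Kv beta subunits are cytosolic partners of Shaker channels, and the 3 genes parted. Kcnab2 was the member of highest level, at 311 TPM in the synaptosome fraction and 232 TPM in the homogenate. With 6498 counts in the synaptosome fraction and 5203 in the homogenate its ratio was 1.95 (1.88 to 2.02). Kcnab1, which confers fast inactivation on Kv1 channels, had 505 synaptosome and 1911 homogenate counts and was 2.42-fold lower (2.20 to 2.68). Kcnab3 had 440 synaptosome and 1285 homogenate counts and a ratio of 0.535 (0.479 to 0.596), so the gene fell short of the 2-fold limit and passed it under library totals. The intervals of all 3 genes lay apart. Summed over the subfamily, Kv beta mRNA per Kv1 mRNA was 2.01 in the synaptosome fraction and 1.96 in the homogenate, measured as a ratio of TPM sums, which no scaling of the libraries changes. The Kv beta total per Kv1 was thus close in both libraries, while Kcnab2 made up more of it in the synaptosome fraction.

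KChIP subunits are calcium sensors that bind Kv4 channels and set the A-current of dendrites. Kcnip4, on chromosome 5 (48389503 to 49285659), had 241 counts in the synaptosome fraction and 1322 in the homogenate and was 3.51-fold lower (3.06 to 4.05). Its level was 20.8 TPM in the synaptosome fraction and 106 TPM in the homogenate. Kcnip1 had 235 synaptosome and 637 homogenate counts and a ratio of 0.576 (0.494 to 0.670), which passed the 2-fold limit under library totals. Kcnip2 had 338 synaptosome and 601 homogenate counts, with a ratio of 0.878 (0.766 to 1.01), and Kcnip3, also known as the transcriptional repressor DREAM, had 2331 synaptosome and 2440 homogenate counts, with a ratio of 1.49 (1.41 to 1.58).

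The KChIP to Kv4 proportion was lower in the synaptosome fraction. KChIP mRNA per Kv4 mRNA, as a ratio of TPM sums over 4 and 3 genes, was 3.23 in the synaptosome fraction and 4.76 in the homogenate. Kv4 mRNA summed to 86.1 TPM in the synaptosome fraction and 94.4 TPM in the homogenate, and KChIP mRNA to 278 TPM in the synaptosome fraction and 450 TPM in the homogenate. Kcnip3 alone made up 148 TPM in the synaptosome fraction and 145 TPM in the homogenate. The lower KChIP level in TPM thus lay in Kcnip1, Kcnip2 and Kcnip4. After TMM scaling, the counts summed over the 4 KChIP genes had a ratio of 0.982 (0.939 to 1.03), near the typical gene. Kcnip3 was the KChIP of highest level in the synaptosome fraction, whereas Kcnip2 was in the homogenate. Beside these values stand 6 of 7 measured nuclear RNA markers that were lower, with a sum of 814 TPM in the synaptosome fraction and 4225 TPM in the homogenate, and the interneuron markers given above, and the part of either was not tested.

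BK beta subunits tune the calcium sensitivity of BK channels. Kcnmb4, the neuronal one, had 940 counts in the synaptosome fraction and 639 in the homogenate and was 2.30-fold higher (2.08 to 2.54), beside the 2.01-fold of its pore Kcnma1. Under library totals its log2 ratio was 0.71, and the call was lost. The level of Kcnmb4 per level of Kcnma1 was 4.68 in the synaptosome fraction and 4.16 in the homogenate. Kcnmb1, the smooth muscle subunit, had 3 synaptosome and 23 homogenate counts and was 4.91-fold lower (1.48 to 25.5). Mural cell markers had no common direction, with 4 of 10 lower, 1 higher (Cspg4) and the others neither. Whether Kcnmb1 followed any of them was not tested. Kcnmb2 had 19 synaptosome and 39 homogenate counts and a log2 ratio of -0.39, with an interval from -1.27 to 0.43.

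Exons of Kcnmb4, Kcnip4, Kcnk3, Kcnd3, Kcnn2, Kcnt2 and Kcnh3 overlap exons of another listed gene on the opposite strand, by 286, 63, 229, 165, 284, 102 and 1 bases. The library kit kept strand, but no source used here says whether the counting did. If it did not, reads of these overlaps cannot be assigned to either gene. Kcnmb1 lies within the span of Kcnip1 on the opposite strand, and their exons share no base in the tables.

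Partner proteins of potassium channels without a Kcn symbol were given by a list of 26 genes, 24 of them above the threshold. Among these, 6 (all genes 12.6%) were higher and 1 (all genes 9.37%) was lower. The median log2 ratio was 0.49. With library totals 2 were higher and 4 lower, where all genes had 4.44% higher and 25.9% lower. Cntnap2, which clusters Kv1 channels beside the node of Ranvier, had 2445 counts in the synaptosome fraction and 1202 in the homogenate and was 3.18-fold higher (2.96 to 3.41). Cntnap1, of the axon-glia junction next to the node, was 3.17-fold higher, and Cntn2, the binding partner of Cntnap2, 2.10-fold higher. Dpp6, a membrane partner of Kv4 channels, had 7926 synaptosome and 5753 homogenate counts and was 2.15-fold higher (2.08 to 2.23). Dpp10, its relative with the same role, had 3461 synaptosome and 2606 homogenate counts and was 2.07-fold higher (1.97 to 2.18). Dlg4, a scaffold that binds Kv1 channels, had the highest level of the list, at 745 TPM in the synaptosome fraction and 575 TPM in the homogenate, and a ratio of 1.88. Among Kv4 partners, the Dpp genes were thus higher and Kcnip4 lower, while Kcnip1, Kcnip2 and Kcnip3 were neither, with Kcnip3 at a ratio of 1.49. Under library totals the log2 ratios of Dpp6 and Dpp10 were 0.61 and 0.56, short of the limit of 1.

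For 16 members at least 2 annotated transcripts had 20 or more summed counts, so that forms of a gene could be set side by side. In 14 of them the ratio intervals of some forms did not overlap. Among all genes with such transcripts the share was 73.5%, so that most genes with several forms show this, and the members' count is read against that share. Estimated counts of similar transcripts carry an assignment error that the counting intervals leave out. The deposited posterior mean counts, a second estimate in the same files, gave 14 of 18 members, against 62.5% of all such genes, and 12 of those were also among the first 14.

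Alternative coding exons give these forms an identity that can be read in sequence. Each exon or exon part below was found in the tables as a stretch of 12 to 100 bases that some forms of a member hold and others lack, and was read from GENCODE M21 transcripts on mm10. The capitals mark the alternative stretch, and the 10 lower-case bases on either side are its neighbours in the spliced transcript. They are shown because the share of counts with the stretch is the measure compared between libraries in the next paragraphs.
Kcnip1, 33 bases, chr11:33651540-33651572, minus strand: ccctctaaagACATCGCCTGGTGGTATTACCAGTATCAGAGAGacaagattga
Kcnma1, 29 bases, chr14:23306725-23306753, minus strand: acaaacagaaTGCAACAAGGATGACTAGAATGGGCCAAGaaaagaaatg
Kcnd3, 57 bases, chr3:105666962-105667018, plus strand: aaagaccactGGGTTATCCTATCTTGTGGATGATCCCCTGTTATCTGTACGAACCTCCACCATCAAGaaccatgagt
Kcnab2, 42 bases, chr4:152434782-152434823, minus strand: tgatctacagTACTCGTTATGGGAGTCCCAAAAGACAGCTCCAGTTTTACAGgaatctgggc
Kcnh1, 81 bases, chr1:192277091-192277171, plus strand: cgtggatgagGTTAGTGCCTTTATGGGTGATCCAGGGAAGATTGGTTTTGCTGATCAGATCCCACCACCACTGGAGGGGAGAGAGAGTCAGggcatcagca

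In Kcnip1, forms with the 33-base exon made up 100% of 235 counts in the synaptosome fraction (98.4% to 100%) and 54.8% of 637 counts in the homogenate (50.8% to 58.7%). The posterior mean counts put the share at 80.4% in the synaptosome fraction and 52.6% in the homogenate. The form that carries the exon had 235 synaptosome and 349 homogenate counts and a log2 ratio of 0.07. Of the forms that lack it, the most abundant had 0 counts in the synaptosome fraction and 267 in the homogenate. By posterior means it had 37 counts in the synaptosome fraction and 264 in the homogenate. The ratio of Kcnip1 as a gene was thus set below 1 mostly by transcripts without this exon, under either estimate.

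In Kcnma1 the 29-base exon was held by 48.7% of counts in the synaptosome fraction (45.8% to 51.6%) and by 59.8% in the homogenate (56.6% to 63.1%), and by posterior means by 48.9% in the synaptosome fraction and 61.2% in the homogenate. This share is a sum over forms that had no common direction. Measured forms with the 29-base exon had log2 ratios from -0.43 to 2.20. Shares of the other 3 alternative exons of Kcnma1 moved by fewer points, and for the 87-base exon the estimates disagreed in direction. In Kcnd3 the form with the 57-base exon held 2.29% of 1092 counts in the synaptosome fraction (1.49% to 3.36%), from 25 counts. In the homogenate it held 0.593% of 1349 counts (0.256% to 1.17%), from 8 counts. This form is 1968 bases long and the other 7169, and a longer form collects more counts per molecule, so these shares understate the exon. By TPM the form with the exon had 2.27 in the synaptosome fraction and 0.68 in the homogenate. The other form had 25.3 TPM in the synaptosome fraction and 29.6 TPM in the homogenate. In Kcnab2 the 42-base exon was held by 98.4% of counts in the synaptosome fraction and 98.1% in the homogenate, with overlapping intervals. In Kcnh1 the 81-base stretch was held by 34.5% in the synaptosome fraction (32.1% to 37.0%) and 38.8% in the homogenate (36.2% to 41.4%), and the posterior means gave 45.1% in the synaptosome fraction and 45.0% in the homogenate, so no difference was seen by that estimate.

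**Figure D5:**
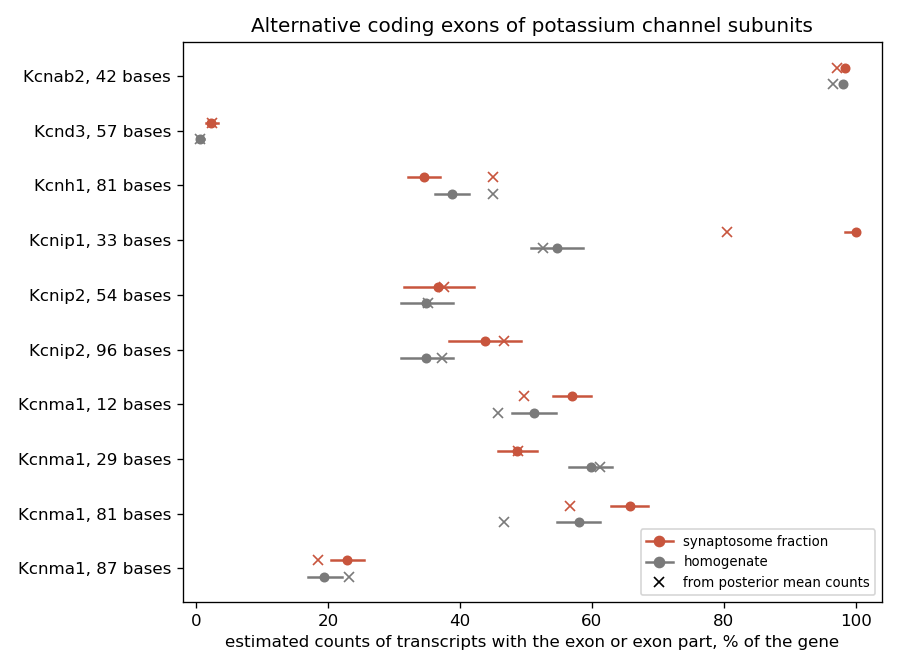
Share of a gene's estimated counts that belong to transcripts with each alternative coding exon or exon part, in percent, for the synaptosome fraction (red) and the homogenate (grey); bars are 95% counting intervals and crosses are shares from the posterior mean counts. Circles and crosses lie close together for the 29-base exon of Kcnma1 and apart for Kcnip1 and Kcnh1.

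Other transcript forms also parted. Kcnt1 has a long form of 5893 bases with 1531 counts in the synaptosome fraction and 2800 in the homogenate, a log2 ratio of -0.23 (-0.32 to -0.14). Its form of 3771 bases had 144 synaptosome and 62 homogenate counts and a log2 ratio of 1.86 (1.42 to 2.31). Kcnj11 in 1 exon had a log2 ratio of 0.84 (0.62 to 1.06), from 371 synaptosome and 323 homogenate counts, and its form of 2 exons had -0.09 (-0.35 to 0.17), from 197 synaptosome and 328 homogenate counts. Kcnc1 forms of 7788 and 4307 bases had log2 ratios of 0.50 (0.40 to 0.60) and 0.26 (0.15 to 0.36). For Kcnt1, Kcnj11 and Kcnc1 the form intervals lay apart under both estimates. For Kcnip4 all 5 measured forms had log2 ratios below -1. The forms with counts in both libraries lay from -1.36 to -2.26, and forms with 0 synaptosome counts were set to a floor of 3 counts, so its lower level was shared by its forms.

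Across the 78 measured members the log2 ratio was nearly unrelated to transcript length (Pearson r 0.09, Spearman rho -0.01 on log2 length) and weakly related to summed counts (r 0.33, rho 0.19). Over all 14649 genes the relation to summed counts was r 0.26 and rho 0.23. These correlations are across genes of the same 2 libraries, and genes are not independent replicates.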

How the data were processed

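Stranded mRNA libraries were sequenced in 100-base reads, per the labels' protocols. The submitters' processing notes name the build mm10 and, without roles or settings, RSEM 1.2.5, TopHat 1.3.3, edgeR 3.0.6 and FastQC. The authors deposited expected counts (estimated counts, partly fractional) for each of 30383 transcripts, with posterior mean counts beside them. The authors also deposited TPM per transcript, and a table of gene signal, which was the summed expected count times 1.253 in the synaptosome fraction and 0.7983 in the homogenate, within 0.5% for all members of at least 10 counts.

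Expected counts were summed per gene symbol and rounded. TMM factors from edgeR 4.0.16 (R 4.3.3) were 0.8429 for the synaptosome fraction and 1.186 for the homogenate. TMM takes most genes as unchanged. Ratios carry exact Clopper-Pearson 95% intervals of the counts, which leave out all error but counting, since reads without molecular identifiers are not independent molecules. A form with 0 counts was set to a floor of 3 counts. Near-identical copies were not searched. Marker and partner lists, members and classes were chosen with earlier results of these data known. Values are given in full for the 4 members of highest mean TPM, the highest and lowest ratio and every higher or lower member of each class, except members that are not reported here. Other members named, among them Kcna1, Kcnc2, Kcnab3 and Kcnip1, and the forms and exons shown were chosen after their values were seen. Tools were Python 3.11.15, numpy 2.4.6, pandas 2.3.3 and scipy 1.17.1. The ratio step was tested on simulated counts for synaptosome over homogenate on 14548 genes, and its intervals covered the simulated ratio in 95.43% of them. The simulated counts held counting error alone, without variation between libraries or assignment error, so this checks only the calculation of the intervals. Alternatives covered scaling, unit, threshold, rounding and fold.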

Additional observations from a re-analysis of the deposited data

How the results depend on the processing

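No paired analysis was possible because each fraction had 1 library, so no library could be left out either. The count of higher members moved with the scaling and the fold limit, and the count of lower members with the count threshold. With library totals, 2 members were at least 2-fold higher instead of 12, and the medians of all, Kv, Kir, two-pore, calcium-activated and accessory members were 0.091, 0.042, 0.074, 0.44, 0.19 and -1.29. With deposited TPM (pseudocount 0.1) 2 were higher, and these medians were 0.045, -0.0038, 0.026, 0.40, 0.14 and -1.34. Under both, 11 were lower, against 8. Library totals called 4.44% of all genes higher and 25.9% lower. Median-of-ratios and upper quartile scaling gave 13 and 8 higher members and 8 lower in each case. Among all genes, median-of-ratios gave 13.2% higher and 8.93% lower, and upper quartile 10.9% and 11.0%. The deposited signal (pseudocount 1) gave 13 higher members and 8 lower. None of the 20 members counted as higher or lower changed sign under these 5 alternatives. With at least 100 summed counts, 2 members were lower, and the accessory median was -0.19, because 4 of its 13 members were left out. With at least 1.5-fold, 38 were higher and 11 lower. No share of all genes at 1.5-fold is given here, so these counts have no background to be read against. A mean of at least 1 CPM, no filter and unrounded counts left every count within 1.5 times. For partners, library totals, added after the data were seen, gave 2 higher and 4 lower, against 6 and 1. The posterior mean counts for transcripts were also added after the data were seen. Counts under about 50 limit Kcne2, Kcne4, Kcnh6 and Kcnmb1.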
